A study of Mus musculus with 12 samples.

Results

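A set of 35 genes that encode proteins of synaptic vesicles and of the presynaptic terminal was described across 12 RNA sequencing libraries of mouse spinal cord. The genes were listed by symbol for their known role in the terminal, not by a threshold on measured values, and matched to the identifiers of the count table. These genes and the other gene lists were chosen with earlier results of these data known. Shares set beside those of all genes are therefore not free of that choice. All 35 were present among its 46078 genes, and all 35 passed the filter on low counts, which left 16527 genes for testing. The libraries fall into 4 groups of 3, and every host was of the strain spelled C57BL6/cJ. One group had no injury, one had a spinal cord injury (SCI) alone, and the others had SCI with transplanted syngeneic mesenchymal stem cells (MSCs) or with transplanted allogeneic MSCs. MSCs are cultured stromal cells that can form bone, cartilage and fat. Syngeneic cells come from a genetically matched donor and allogeneic cells from a mismatched one. All 9 libraries of the 3 injured groups therefore carry the injury. The sources used here do not give the donor strain, cell dose, site and severity of the injury, time of collection, length of cord taken, age or sex of the mice, or whether the group with SCI alone received a mock injection. The labels do not state that the 3 libraries of a group came from separate animals, so the p-values below measure the spread between these libraries only.

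Library totals ran from 8705942 to 26151928 counts. The tissue label was checked against marker lists: all 17 pan-neuronal, all 10 motor neuron, all 12 myelin and all 10 astrocyte markers passed the filter, as did 3 of 9 dorsal root ganglion markers. In non-injured cord the pan-neuronal markers summed to between 16304 and 17254 CPM (a gene's counts divided by the scaled library total, the usual unit that makes libraries of different depth comparable) and the dorsal root ganglion markers to between 79.8 and 132 CPM. Non-injured replicate 3 stood apart from the other two libraries of its group. Mitochondrial genes took 10.9% of its counts against 5.0% to 8.8% in the other 11 libraries. The chi-square statistic per degree of freedom between its counts and those of non-injured replicates 1 and 2 was 86.1 and 80.6, against 7.25 between replicates 1 and 2. No pair of libraries within a group agreed within sampling noise (7.25 to 86.1). For the set of presynaptic genes, results that rest on non-injured replicate 3 are therefore given with and without it. For the other gene lists, differences without it are not given.

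At a presynaptic terminal, vesicle transporters load transmitter into synaptic vesicles, active zone proteins dock and prime the vesicles, and calcium entering through nearby channels triggers their fusion. Fusion is driven by the SNARE complex, in which synaptobrevin (Vamp) on the vesicle zips together with syntaxin and Snap25 on the plasma membrane. Synaptotagmins sense the calcium, complexins hold and release the assembled complex, Nsf and its adaptors take it apart again, and dynamin with amphiphysin retrieves the membrane. In the spinal cord these proteins serve local inhibitory and excitatory interneurons as well as fibres that descend from the brain and enter from the dorsal roots, while their transcripts come largely from neuronal cell bodies within the sampled tissue.

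Injury alone was compared with non-injured cord first. Of the 35 genes, 5 fell and 0 rose (edgeR quasi-likelihood test with Benjamini-Hochberg adjustment over all 16527 genes, threshold 0.05). Over all genes tested, 9.26% were called lower and 16.6% higher. The 5 were Rab3a, the small GTPase that tethers vesicles near release sites; Snap25, the plasma membrane SNARE of neurons; Vamp1, the synaptobrevin prominent in spinal cord and brainstem; Syp, the vesicle membrane protein synaptophysin; and Cplx1, the complexin of fast-releasing synapses. Their mean levels in SCI were 56.5% to 67.0% of the non-injured mean. Of the other 30 genes none passed the test, and 28 of all 35 had a log2 fold change below 0, against 49.2% of all genes. The median log2 fold change of the 35 genes was -0.21, and that of all genes was 0.01. In bulk tissue, fewer neurons in the sample and less RNA of a gene in each neuron cannot be told apart.

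The value of each library shows how the 5 genes were separated. Rab3a stood at 499, 475 and 480 CPM in the 3 non-injured libraries and at 309, 256 and 257 CPM in the 3 SCI libraries. It was the most even of all 35 genes in non-injured cord, and it fell by 0.82 on the log2 scale (SE 0.16, 95% interval -1.17 to -0.48, edgeR adjusted p = 0.0036). Snap25, the most abundant member by CPM, measured 3735, 3330 and 3146 CPM in non-injured cord and 2145, 1737 and 2009 CPM in SCI. All SCI libraries thus lay below all non-injured ones, with a fall of 0.79 on the log2 scale (SE 0.17, edgeR adjusted p = 0.0070). Vamp1 measured 1568, 1362 and 1277 CPM against 1015, 804 and 866 CPM, a fall of 0.65 (SE 0.16, edgeR adjusted p = 0.012). Syp measured 912, 883 and 749 CPM against 624, 549 and 517 CPM, a fall of 0.59 (SE 0.16, edgeR adjusted p = 0.017). Cplx1 measured 1367, 1202 and 1102 CPM against 919, 745 and 795 CPM, a fall of 0.58 (SE 0.16, edgeR adjusted p = 0.021). In all 5 genes the lowest non-injured library was above the highest SCI library, as it was for Sv2b, a vesicle glycoprotein of the SV2 family. Sv2b measured 161, 142 and 134 CPM in non-injured cord and 105, 96.4 and 103 CPM in SCI, and its difference of -0.52 (SE 0.19) had an edgeR adjusted p of 0.063. These 6 genes were separated in the lower direction, as were 21.2% of all genes tested, and the same 6 had an unadjusted p under 0.05, as did 16.5% of all genes in the lower direction.

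The fall of Snap25 and Rab3a passed the test under all 12 alternatives tried, with adjusted p of 3.7e-05 to 0.039 for Snap25 and 1.3e-05 to 0.022 for Rab3a. Vamp1, Syp and Cplx1 lost the call when non-injured replicate 1, SCI replicate 2 or SCI replicate 3 was left out, which left 2 genes called each time. Syp also lost it without non-injured replicate 2, which left 4. Their adjusted p over the 12 alternatives reached 0.060 for Vamp1, 0.080 for Syp and 0.093 for Cplx1. Sv2b was called with DESeq2, with no filter on low counts and in a fit of the 2 groups alone, its adjusted p running from 0.012 to 0.18 over the 12 alternatives.

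**Figure D1:**
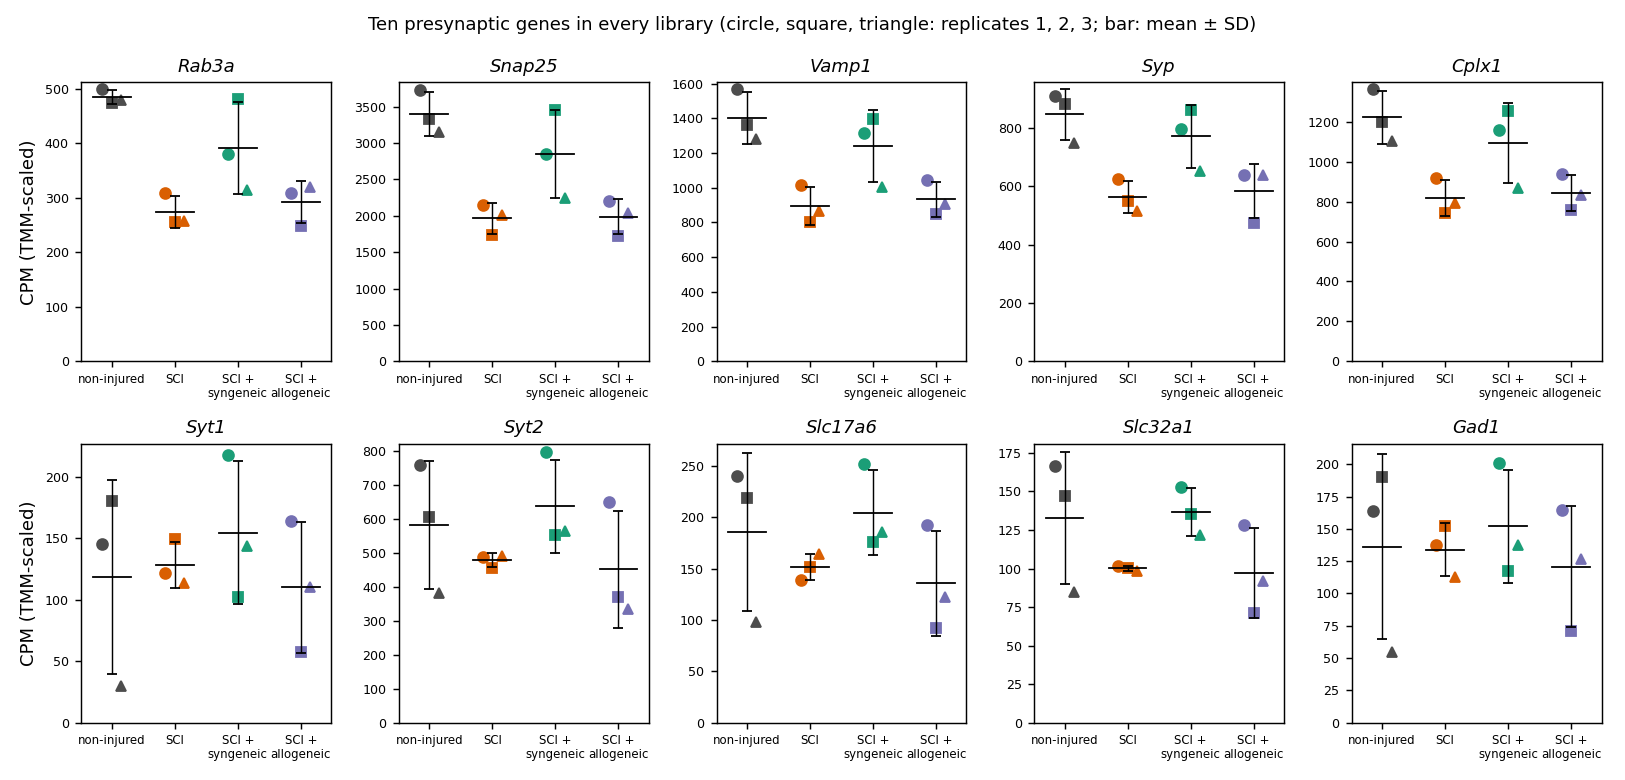
Level of 10 presynaptic genes in each of the 12 libraries, in CPM scaled by the trimmed mean of M values (vertical axes start at 0), by group; circles, squares and triangles are replicates 1, 2 and 3, and bars give the mean ± SD (n = 3). In the upper row the 5 genes called lower in SCI separate the non-injured from the SCI libraries, and in the lower row the triangle of non-injured replicate 3 lies below every other non-injured value.

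Rab3a (ENSMUSG00000031840) lies at chr8:70754679-70758677 and Snap25 (ENSMUSG00000027273) at chr2:136713453-136782428, both on the plus strand of GRCm38. Vamp1 (ENSMUSG00000030337) lies at chr6:125215551-125245964 and Syp (ENSMUSG00000031144) at chrX:7638471-7653256, also on the plus strand, and Cplx1 (ENSMUSG00000033615) at chr5:108518554-108550024 on the minus strand. The stretches upstream of 4 of the 5 genes that fell, and of 2 members that were not called (Syn1 and Unc13a), are shown. Syn1 and Unc13a missed the threshold, which does not show that they responded otherwise than the 5 genes. Sequences are from RefSeq (GRCm38.p6) and hold only bases upstream of both the RefSeq and the GENCODE start, 5′ to 3′ on the strand of the gene. Capitals mark a match to a CCAAT box (CCAAT), a GC box (GGGGCGGGG), a cAMP response element (TGACGTCA) or the first part of RE1, the element bound by the neuronal silencer REST (TCAGCACC), on either strand.
Rab3a, chr8:70754453-70754678, plus strand: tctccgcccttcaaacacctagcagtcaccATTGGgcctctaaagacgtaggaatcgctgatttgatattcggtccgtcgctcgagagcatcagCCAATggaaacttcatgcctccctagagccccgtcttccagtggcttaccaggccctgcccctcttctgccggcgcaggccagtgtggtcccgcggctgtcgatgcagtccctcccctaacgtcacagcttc
Vamp1, chr6:125215331-125215550, plus strand: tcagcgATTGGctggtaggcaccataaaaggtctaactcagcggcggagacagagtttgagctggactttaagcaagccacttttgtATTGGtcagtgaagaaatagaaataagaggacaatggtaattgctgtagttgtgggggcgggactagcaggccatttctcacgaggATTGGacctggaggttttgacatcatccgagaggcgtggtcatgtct
Syp, chrX:7638330-7638470, plus strand: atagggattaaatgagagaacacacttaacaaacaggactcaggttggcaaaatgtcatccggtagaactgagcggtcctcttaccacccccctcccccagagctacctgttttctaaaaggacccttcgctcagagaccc
Cplx1, chr5:108550028-108550277, minus strand: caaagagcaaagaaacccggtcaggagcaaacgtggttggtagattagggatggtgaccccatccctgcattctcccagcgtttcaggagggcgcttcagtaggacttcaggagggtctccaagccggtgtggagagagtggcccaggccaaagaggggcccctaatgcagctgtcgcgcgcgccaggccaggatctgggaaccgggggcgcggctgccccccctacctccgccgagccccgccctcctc
Syn1, chrX:20921005-20921168, minus strand: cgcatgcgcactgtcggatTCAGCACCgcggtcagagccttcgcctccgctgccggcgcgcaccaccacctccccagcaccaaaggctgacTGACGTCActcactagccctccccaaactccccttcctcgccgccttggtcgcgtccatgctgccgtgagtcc
Unc13a, chr8:71671758-71672007, minus strand: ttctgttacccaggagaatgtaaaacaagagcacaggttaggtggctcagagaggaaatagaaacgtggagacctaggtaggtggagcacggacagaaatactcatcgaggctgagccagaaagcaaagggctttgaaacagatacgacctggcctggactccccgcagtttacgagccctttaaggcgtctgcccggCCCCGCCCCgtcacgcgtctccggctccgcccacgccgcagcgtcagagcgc
The Rab3a stretch held 2 CCAAT boxes and the Vamp1 stretch 3, while the Syp and Cplx1 stretches held none of the 4 motifs. The Syn1 stretch held the first part of RE1 and the cAMP response element, and the Unc13a stretch a GC box. Promoter entries were present for 31 of the 35 genes, the exceptions being Snap25, Syt4, Syngr3 and Vamp2. In the 250 bases upstream of the RefSeq starts, a CCAAT box was found in 7 of the 31 members (22.6%) against 37.5% of 27025 genes. A GC box was found in 7 of 31 (22.6%) against 11.8%, among them Rab3a and Syp, whose GC boxes lie outside the stretches printed here. The first part of RE1 (1.49% of genes) and the cAMP response element (1.77% of genes) were each found in 1 member, Syn1. No motif was thus shared by the 5 genes that fell. These matches describe letters in a window and are not evidence of binding.

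The SNARE and fusion genes numbered 11, of which 3 fell in SCI (Snap25, Vamp1 and Cplx1) and 8 were not called. Levels between genes were compared as CPM per kilobase of exon (GENCODE M21 on GRCm38). On that scale Cplx1 was the highest of all 35 genes in non-injured cord, at 559 ± 61.0 (SD, n = 3), and Snap25 was next at 501 ± 44.4, with libraries that overlapped those of Cplx1. Vamp1 at 138 ± 14.7 exceeded its paralog Vamp2 at 71.2 ± 18.4, and in CPM per kilobase the ratio of Vamp1 to Vamp2 was 2.03, 1.55 and 2.47 in the non-injured libraries and 1.55, 1.03 and 1.37 in SCI. The lowest non-injured and the highest SCI ratio were thus both 1.55, and Vamp2, the synaptobrevin dominant in forebrain, had a log2 difference of -0.07 (95% interval -0.46 to 0.33). Cplx1 exceeded Cplx2 by 12.4- to 38.9-fold in non-injured cord and by 8.94- to 13-fold in SCI, the value of 38.9 being that of non-injured replicate 3. Stx1a, a syntaxin of the plasma membrane, was low throughout at 3.66 ± 1.64 CPM per kilobase in non-injured cord.

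Among the calcium sensors, Syt2, the fast sensor of spinal and brainstem synapses, exceeded Syt1 by 3.68- to 13.9-fold in CPM per kilobase in non-injured cord and by 3.33- to 4.74-fold in SCI. Syt1 measured 145, 180 and 30.0 CPM in the non-injured libraries, 122, 149 and 113 CPM in SCI, 217, 102 and 143 CPM in the syngeneic group and 164, 57.1 and 110 CPM in the allogeneic group. Non-injured replicate 3 was the lowest of the 12 values, and the 4 groups overlapped. The log2 difference of Syt1 between SCI and non-injured cord was 0.11 (95% interval -1.06 to 1.28) with all libraries and -0.36 without non-injured replicate 3. Syt4, a synaptotagmin of the same family, differed by 0.02 (95% interval -0.34 to 0.38), the estimate nearest to 0 among the SNARE and fusion genes. Nsf, the ATPase that dismantles SNARE complexes, and Napb, its neuronal adaptor, differed by -0.22 (95% interval -0.83 to 0.38) and -0.19 (95% interval -0.78 to 0.40). Exons of Syt4 overlap those of a gene on the other strand over 14.5% of their length, those of Syp over 16.8% and those of Slc32a1, the transporter described below, over 24.9%. The sources used here do not give the strand setting of the counting, so the values of these 3 genes are uncertain to that extent.

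Of the 10 genes of the vesicle membrane and its surface, 2 fell in SCI (Rab3a and Syp) and 8 were not called. The synapsins Syn1 and Syn2, which cluster vesicles in reserve, differed by -0.14 (95% interval -0.64 to 0.36) and -0.23 (95% interval -0.77 to 0.31). Their ratio in CPM per kilobase lay between 2.78 and 3.56 in all 12 libraries, the narrowest range among the paralog pairs examined relative to its size. It was 3.10 to 3.26 in non-injured cord and 3.27 to 3.56 in SCI, ranges that did not overlap. Rab3a exceeded its paralog Rab3c 8.24- to 25.3-fold in non-injured cord and 5.34- to 7.63-fold in SCI, so the ranges of this ratio did not overlap. Rab3c itself differed by -0.01 (95% interval -0.91 to 0.88). Within the SV2 family, Sv2a and Sv2c differed by -0.08 and -0.14, and the ratio of Sv2a to Sv2b was 3.77 to 5.08 in non-injured cord and 5.67 to 6.83 in SCI. That ratio thus did not overlap between the groups either, Sv2b being the member of the family that separated. How often such ratios separate over pairs of all genes was not computed. Syngr1 and Syngr3, synaptogyrins of the vesicle membrane, differed by 0.09 and -0.21, and neither was called. The ratio of Syngr1 to Syngr3 was 1.40 to 1.76 in non-injured cord and 1.73 to 2.18 in SCI. That of Sv2a to Sv2c was 1.44 to 1.84 and 1.48 to 1.99, so both these ratios overlapped between the groups.

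None of the 6 active zone and adhesion genes and neither of the endocytosis genes was called in SCI. Unc13a, which primes vesicles for fusion, differed by -0.42 (95% interval -1.13 to 0.30) and Rims1, a scaffold that recruits it, by -0.32 (95% interval -0.94 to 0.30). The giant scaffolds Bsn (bassoon) and Pclo (piccolo) differed by 0.30 and -0.05, with 95% intervals of -0.61 to 1.22 and -0.86 to 0.77. Nrxn3, a neurexin that binds partners across the cleft, differed by -0.14, and Snph, which anchors mitochondria in axons, by -0.23. Dnm1, the dynamin that cuts vesicles from the membrane, differed by -0.21 (95% interval -0.82 to 0.39) and Amph, its amphiphysin partner, by -0.22. Dnm1 was the most abundant gene outside the 5 that fell, at 125 ± 48.1 CPM per kilobase in non-injured cord. Bsn and Pclo were among the lowest at 4.57 ± 1.94 and 6.35 ± 1.91. The intervals of Unc13a, Rims1, Pclo and Dnm1 reached below the fall seen for Snap25, and those of the other 4 of these 8 genes did not.

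Genes that define the transmitter of a neuron were 6 in number, and 0 were called in SCI. Slc17a6, the vesicular glutamate transporter of spinal excitatory neurons, measured 240, 219 and 97.5 CPM in non-injured cord, 139, 151 and 164 CPM in SCI, 252, 175 and 186 CPM in the syngeneic group and 192, 92.2 and 123 CPM in the allogeneic group. Slc32a1, which loads GABA and glycine into vesicles, measured 167, 147 and 84.5 CPM, then 101, 100.3 and 98.4 CPM, then 153, 135 and 122 CPM, and finally 128, 71.0 and 92.1 CPM in the same order of groups. Both transporters were lowest in replicate 3 among the non-injured libraries, and that library lay below all 3 SCI libraries. Their log2 differences in SCI were -0.29 (95% interval -1.0 to 0.41) and -0.41 (95% interval -0.94 to 0.12). Without non-injured replicate 3, Slc32a1 was called at -0.67 (edgeR adjusted p = 0.026, 0.026 to 0.61 over 12 alternatives). The ratio of Slc17a6 to Slc32a1 in CPM per kilobase was 0.60 to 0.77 in non-injured cord and 0.71 to 0.86 in SCI, ranges that overlapped.

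Gad1, which makes GABA, measured 164, 190.2 and 54.7 CPM in non-injured cord, 137, 152 and 112 CPM in SCI, 201, 117 and 138 CPM in the syngeneic group and 164, 71.0 and 127 CPM in the allogeneic group. Its log2 difference in SCI was -0.02 (95% interval -0.92 to 0.87), with SCI inside the non-injured range in all 3 libraries. Gad2, the second GABA-making enzyme, differed by 0.36 (95% interval -0.81 to 1.52), the highest point estimate of the 35 genes, and by -0.09 without non-injured replicate 3. The ratio of Gad1 to Gad2 in CPM per kilobase was 1.27 to 1.70 in non-injured cord and 0.87 to 1.20 in SCI, ranges that did not overlap. Slc6a5, the glycine transporter of inhibitory terminals, differed by -0.05. The ratio of Slc6a5 to Slc32a1 was 1.04 to 1.27 in non-injured cord and 1.43 to 1.59 in SCI, also without overlap. For these ratios too, the share of all gene pairs that separate was not computed. Slc17a7, a glutamate transporter of cortical neurons and sensory afferents, was close to absent, with 116, 0 and 0 counts in the non-injured libraries and 4 to 114 counts in the 9 injured ones. A single non-injured library therefore carried all counts of Slc17a7 in its group, and no fold is given for this gene.

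The 35 genes followed 2 patterns across libraries, which were noticed after the values were seen and are described without a test. A gene is called more readily when its spread within groups is small, so the spread of the 5 called genes, and the nearness of their non-injured libraries, are in large part set by the call itself. By mean CPM per kilobase over the 3 non-injured libraries, the 5 genes that fell were the 5 highest of the 35. They ran from 138 for Vamp1 to 559 for Cplx1, with Dnm1 next at 125. The rank of Vamp1 above Dnm1 rests on non-injured replicate 3. Dnm1 stood at 129%, 115% and 56.2% of its mean in replicates 1, 2 and 3, and Vamp1 at 112%, 97.1% and 91.1%. Dnm1 was thus above Vamp1 in replicates 1 and 2. Among the 5 genes non-injured replicate 3 reached 83.4% to 98.6% of the mean of replicates 1 and 2. It reached 88.5% for Sv2b. For the other 28 genes, leaving out Slc17a7, it reached 18.4% to 68.9%, with Syt1 lowest and Sv2a highest. A value under 70% was met by 15% of all genes tested, whose median was 1.05 times the mean of the other two libraries, and by 1.5% of the 1530 genes called lower in SCI. The coefficient of variation among non-injured libraries was 2.66% to 10.9% for the 5 genes and had a median of 32.3% for the 29 others, Slc17a7 left out. In SCI the medians were 10.9% and 7.30%, so in SCI it was the 5 that spread more.

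The injured libraries also split the genes. Among the 9 injured libraries, syngeneic replicate 2 was the highest for all 5 genes that fell, while syngeneic replicate 1 was the highest for all 29 others, Slc17a7 left out. Syngeneic replicate 1 was the highest of all 12 libraries in 22 of those 29. Within the allogeneic group, replicate 1 was highest in 28 of the 29 and in 3 of the 5, and replicate 2 lowest in 22 of the 29 and in all 5. The heat map of the 34 genes shows these library patterns beside the group differences.

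**Figure D2:**
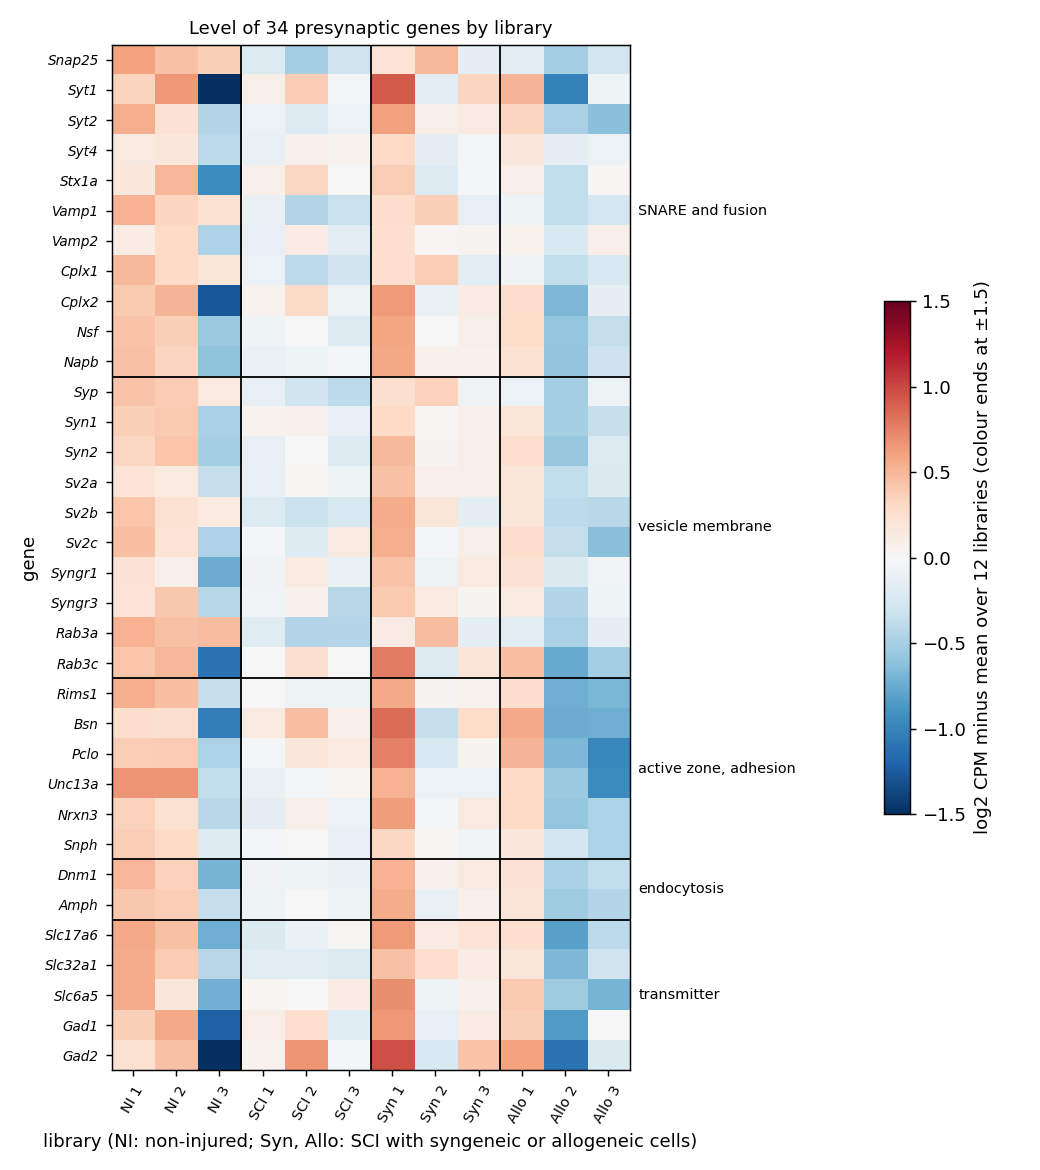
Heat map of log2 CPM for 34 of the 35 genes (rows, by role; Slc17a7 is left out because it was close to 0) in the 12 libraries (columns), each gene relative to its mean over the libraries, with colours ending at ±1.5. Non-injured replicate 3 is blue for 28 genes and not for Snap25, Vamp1, Cplx1, Syp, Rab3a and Sv2b, and syngeneic replicate 1 is red in every row.

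**Figure D3:**
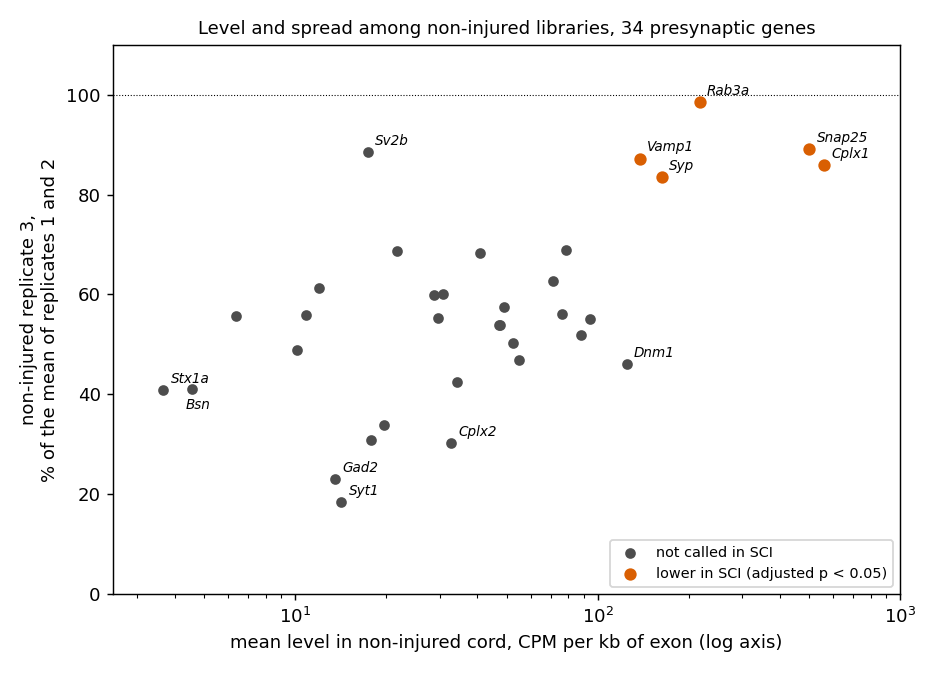
Level in non-injured replicate 3 as a percentage of the mean of replicates 1 and 2 (vertical axis) against the mean non-injured level in CPM per kilobase of exon (horizontal log axis), one point per gene for 34 genes. The 5 genes called lower in SCI (orange) lie at the right between 83.4% and 98.6%, and Sv2b is the one other gene above 70%.

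Other measures moved with non-injured replicate 3. Relative to the non-injured mean on the log2 scale, the mean of the 35 genes was 0.41 in replicate 1, 0.22 in replicate 2 and -0.64 in replicate 3. Slc17a7, with all its non-injured counts in replicate 1, is included in this mean. For 32 postsynaptic genes the value of replicate 3 was -0.56 and for 51 further presynaptic genes -0.53. The pan-neuronal markers stood at -0.16 there, whereas motor neuron markers stood at 0.35 and myelin markers at 0.63. The summed CPM of the 12 myelin markers was 84081 in replicate 3 against 43954 and 35080 in replicates 1 and 2. The 4 skeletal muscle markers that passed the filter summed to 7.74 CPM there against 1.82 and 2.12 CPM. Myelin and motor neuron markers were thus highest in the library in which most presynaptic genes were lowest, and their part in the result was not tested.

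When non-injured replicate 3 was left out, 6 of the 35 genes fell in SCI, Slc32a1 joining the 5, against 7.84% of all genes called lower. All 35 log2 fold changes were then below 0, against 50% of all genes, and 16 had an unadjusted p under 0.05 in the lower direction, against 15.6% of all genes. The median moved from -0.21 to -0.43. Without non-injured replicate 1, in contrast, 18 of the 35 were below 0 and the median was -0.02, with 2 genes called lower. When non-injured replicate 3 was the library left out, the values of the 5 genes moved little, from -0.82 to -0.85 for Rab3a and from -0.79 to -0.86 for Snap25. Genes with low values in non-injured replicate 3 moved more when it was left out. Dnm1 moved from -0.21 to -0.51 (edgeR adjusted p = 0.076, 0.076 to 0.98 over 12 alternatives). Unc13a moved from -0.42 to -0.71 (edgeR adjusted p = 0.097, 0.097 to 0.67 over 12 alternatives). Neither passed the threshold. The plot of fold changes sets both values side by side for each gene.

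**Figure D4:**
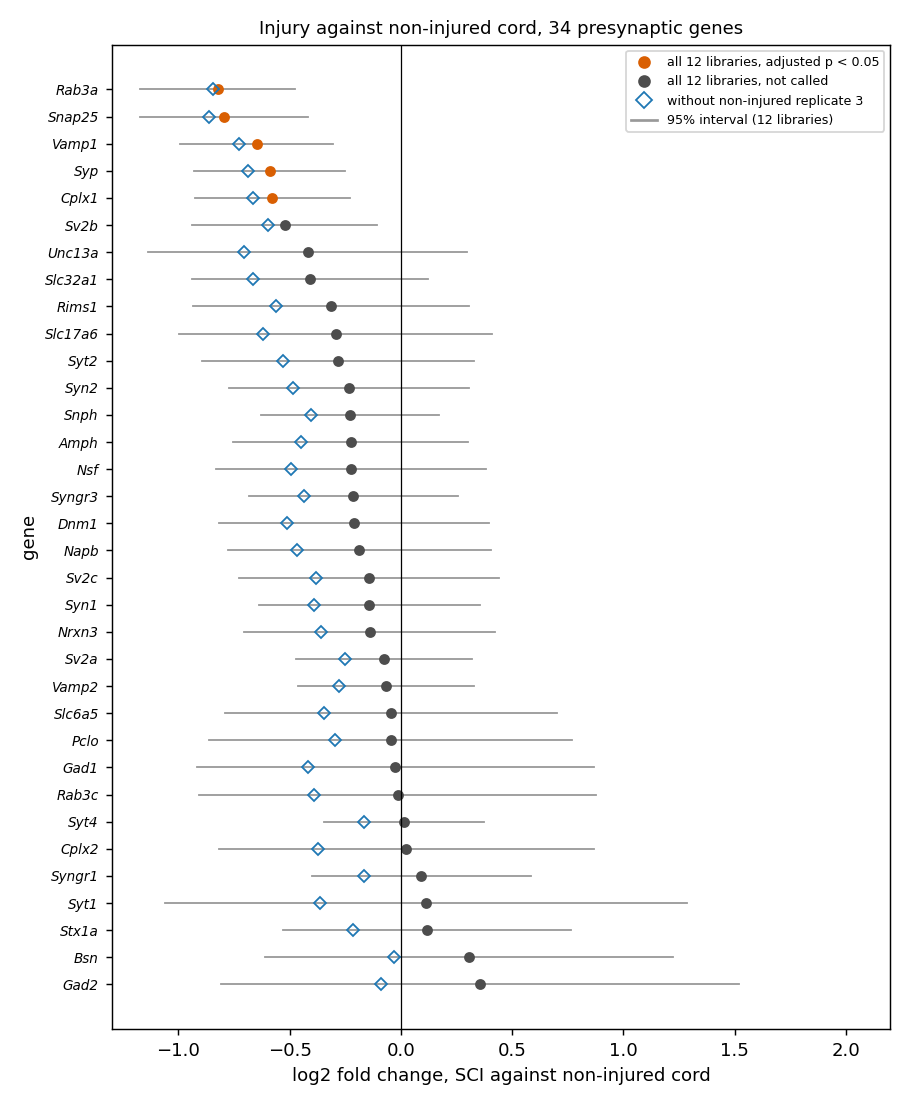
Log2 fold change of SCI against non-injured cord for 34 genes (Slc17a7 left out), ordered by value; filled points use all 12 libraries, with orange for an edgeR adjusted p under 0.05 and grey lines for the 95% interval, and open diamonds leave out non-injured replicate 3. Every diamond lies below 0, and the distance between point and diamond is smallest for Rab3a.

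Transplantation of syngeneic cells was compared with injury alone to ask whether the graft altered the injured cord. By edgeR 0 of the 35 genes were called, against 0.0363% of all genes in either direction, and 0 were called by DESeq2 and by limma-voom. An unadjusted p under 0.05 was reached by 6 genes, all higher with syngeneic cells, against 5.55% of all genes in that direction. They were Snap25 at 0.54 (95% interval 0.16 to 0.91), Rab3a at 0.52 (95% interval 0.17 to 0.86), Sv2b at 0.48, Vamp1 at 0.47, Syp at 0.45 and Cplx1 at 0.42, with edgeR adjusted p of 0.31 to 0.33. Of the 35 differences, 34 were above 0, against 49.4% of all genes below it, and the median was 0.27 against 0.00 for all genes. The libraries of both groups did not overlap in the higher direction for 12 genes, against 12.2% of all genes. Without syngeneic replicate 1 the differences above 0 fell to 24 and the median to 0.10.

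Library values show how far the syngeneic group overlapped the others. Rab3a measured 380, 481 and 314 CPM with syngeneic cells, from just above the highest SCI library (309 CPM) to within the non-injured range. Snap25 measured 2846, 3457 and 2242 CPM, Vamp1 1315, 1397 and 1006 CPM, Syp 799, 864 and 653 CPM and Cplx1 1158, 1255 and 870 CPM. In each of these genes replicate 3 was lowest and replicate 2 highest. For Vamp1 and Cplx1 replicate 3 fell within the range of SCI. Without syngeneic replicate 3, Rab3a was called higher (edgeR adjusted p = 0.049, 0.049 to 0.76 over 12 alternatives), the single member so called, against 0.367% of all genes. The summed CPM of 12 microglia and macrophage markers was 1242 and 891 in syngeneic replicates 1 and 2 but 3415 in replicate 3, against 2596 to 3625 in SCI. The part of this difference between libraries in the result was not tested.

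With allogeneic cells the libraries overlapped those of injury alone for each of the 5 genes. By edgeR 0 of 35 genes were called against SCI, as were 0.188% of all genes, and 0 had an unadjusted p under 0.05 (1.17% of all genes in the lower and 1.77% in the higher direction). DESeq2 and limma-voom also called 0, with 0 at an unadjusted p under 0.05. Rab3a measured 309, 249 and 319 CPM, Snap25 2204, 1727 and 2034 CPM, Vamp1 1044, 848 and 906 CPM, Syp 638, 476 and 640 CPM and Cplx1 937, 758 and 832 CPM. The lowest allogeneic value of each of these genes was that of replicate 2. The difference from SCI was 0.09 for Rab3a (95% interval -0.25 to 0.44) and 0.02 for Snap25 (95% interval -0.36 to 0.39). Rises as large as 0.39 to 0.44 in these genes therefore remain within the intervals. Of the 35 differences 26 were below 0 (49.6% of all genes were), with a median of -0.11. The highest levels of the allogeneic group came mostly from replicate 1, and without it 33 differences were below 0 (48.8% of all genes) and 4 had an unadjusted p under 0.05 in the lower direction (5.24% of all genes), with 0 called. Without allogeneic replicate 2 the median was 0.05 and 13 differences were below 0, so the balance of the set turned with single libraries.

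The grafts were also compared with each other. By edgeR, DESeq2 and limma-voom 0 of the 35 genes were called, against 0.611% of all genes by edgeR. An unadjusted p under 0.05 was reached by 5 genes in edgeR, 7 in DESeq2 and 5 in limma-voom, all higher with syngeneic cells, against 4.32% of all genes by edgeR. In edgeR these were Snap25 at 0.52 (SE 0.17), Rab3a at 0.42 (SE 0.16), Vamp1 at 0.41 (SE 0.16), Syp at 0.40 (SE 0.16) and Cplx1 at 0.38 (SE 0.16), with adjusted p of 0.25 to 0.31. Libraries did not overlap for 2 genes, Snap25 and Syp, against 5.19% of all genes. The median over the 35 genes was 0.42 against 0.02 for all genes, with 34 above 0 (47.3% of all genes were below it). Without allogeneic replicate 1, 25 genes had an unadjusted p under 0.05 in the higher direction (11.3% of all genes), and 0 were called. Without syngeneic replicate 2 or allogeneic replicate 2 no gene reached an unadjusted p under 0.05, and without syngeneic replicate 1 the median was 0.21. Markers of other cells moved with this comparison. All 12 microglia and macrophage markers were below 0 with a median of -0.94, and 8 of 9 fibroblast markers with a median of -1.20. By edgeR 0 of either list were called. An unadjusted p under 0.05 in the lower direction was reached by 9 and 2 of them, against 10.1% of all genes. Microglia and macrophage markers summed to 1242, 891 and 3415 CPM in the syngeneic libraries and to 2528, 4629 and 4627 CPM in the allogeneic ones. Fibroblast markers summed to 859, 913 and 1766 CPM and to 1116, 2293 and 2132 CPM. Allogeneic replicate 1 was the lowest of its group in both lists, and the part of these markers in the result was not tested.

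Each graft group was also set against the same 3 non-injured libraries, so these values and those of SCI share their controls and are only placed side by side. With syngeneic cells 0 of 35 genes were called by edgeR, DESeq2 and limma-voom, against 5.34% of all genes by edgeR, and 0 had an unadjusted p under 0.05 in any of the 3 (5.84% of all genes in the lower direction by edgeR). The values were -0.31 for Rab3a (95% interval -0.65 to 0.04), -0.26 for Snap25 (95% interval -0.63 to 0.12), -0.18 for Vamp1, -0.16 for Cplx1 and -0.14 for Syp. Below 0 lay 10 of 35 values with all libraries (45.5% of all genes) and 33 of 35 without non-injured replicate 3 (50.2% of all genes). Without syngeneic replicate 1 it was 28 of 35. The direction of most of the set against non-injured cord thus turned with either of these libraries.

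With allogeneic cells 5 genes fell against non-injured cord, against 8.17% of all genes called lower. They were Snap25 at -0.78, Rab3a at -0.73, Vamp1 at -0.59, Cplx1 at -0.54 and Syp at -0.54 (edgeR adjusted p of 0.0065 to 0.028). An unadjusted p under 0.05 was reached by 6 genes (15.4% of all genes in that direction). Of the 35 values 32 were below 0 (51.1% of all genes), with a median of -0.31. Without non-injured replicate 3 the count rose to 12 genes (8.61% of all genes), which added Dnm1, Rims1, Slc17a6, Slc32a1, Snph, Syn1 and Unc13a. Without allogeneic replicate 1 it was 10 genes (9.57% of all genes), which added Pclo, Rims1, Snph, Sv2b and Unc13a. It fell to 2 without non-injured replicate 1 or allogeneic replicate 2, leaving Rab3a and Snap25, and to 3 without non-injured replicate 2 or allogeneic replicate 3.

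Further genes of the presynaptic pathway were taken from a list of 53, of which 51 passed the filter. In SCI 9 fell and 1 rose, beside 9.26% of all genes lower and 16.6% higher, with a median of -0.10. The genes with the smallest p were Slc6a9, a glycine transporter, at -0.46 (SE 0.11, edgeR adjusted p = 0.0094), Napa, an adaptor of Nsf, at -0.35 (SE 0.10, edgeR adjusted p = 0.023) and Sncb, beta-synuclein, at -0.70 (SE 0.20, edgeR adjusted p = 0.023). The 1 gene that rose was Slc17a8, a vesicular glutamate transporter of sparse neurons, at 1.02 (SE 0.33, edgeR adjusted p = 0.041), from 1.27 ± 0.52 to 2.57 ± 0.44 CPM (SD, n = 3). Slc17a8 was thus low in both groups, and in non-injured replicate 3 it stood at 42.6% of the mean of replicates 1 and 2. Its difference without that library is not given here. The other 6 that fell were Slc18a3, Napg, Rab3b, Syt3, Sh3gl2 and Snap47. In this list non-injured replicate 3 was under 70% of the mean of replicates 1 and 2 in 29 of the 42 genes that did not fall and in 1 of the 9 that fell. A value under 70% was met by 15% of all genes tested and by 1.5% of all genes called lower in SCI. A gene is called more readily when its spread within groups is small. The split in this list is therefore in large part set by the call, and is not separate evidence for the patterns described above.

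Counts of the following lists stand beside the same 9.26% of all genes called lower and 16.6% called higher. Across the synapse, 1 of 32 postsynaptic genes fell in SCI, a smaller share than over all genes, and it was Glrb, the beta subunit of the glycine receptor, at -0.75 (SE 0.14, edgeR adjusted p = 0.0035). The list's median was -0.07. In non-injured replicate 3, 21 of the 31 postsynaptic genes that did not fall stood under 70% of the mean of the other non-injured libraries. Glrb stood there at 99.8%. A low non-injured library makes a fall harder to call, so the smaller share does not show that postsynaptic genes were spared. Differences of this list without that library are not given here. Of 17 pan-neuronal markers 9 fell and 0 rose, with a median of -0.55, led by the neurofilaments Nefl at -0.91 (edgeR adjusted p = 0.0042) and Nefm at -0.98 (edgeR adjusted p = 0.0046) and by Stmn2, a regulator of axonal microtubules, at -0.58 (edgeR adjusted p = 0.0060). The other 6 were Nefh, Thy1, Tubb3, Uchl1, Elavl3 and Elavl4. Of 10 motor neuron markers 5 fell and 0 rose, with a median of -0.81, led by Chodl at -1.34, the choline transporter Slc5a7 at -0.77 and Chat, which makes acetylcholine, at -0.67. Slc18a3, the vesicular acetylcholine transporter, is on both the presynaptic and the motor neuron list and fell by 0.86. The fifth of the motor neuron markers that fell was Prph. In non-injured replicate 3 the 9 pan-neuronal markers that fell stood at 86.2% to 134% of the mean of the other non-injured libraries. The 5 motor neuron markers that fell stood there at 94.4% to 204%. The differences of these markers without that library are not given here.

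Set against the pan-neuronal markers, the mean log2 level of the 35 genes overlapped between non-injured and injured libraries. The difference between both means, relative to its non-injured mean, was 0.31, 0.17 and -0.47 in non-injured cord, 0.29, 0.47 and 0.40 in SCI, 0.47, 0.18 and 0.36 in the syngeneic and 0.52, 0.12 and 0.32 in the allogeneic group. All 9 injured libraries lay between 0.12 and 0.52, and non-injured replicate 3 was the one library below 0. Markers of other cells moved with the groups as well. All 12 microglia and macrophage markers rose in SCI with a median of 3.19, and their summed level went from 222 to 315 CPM in non-injured cord to 2596 to 3625 CPM in SCI. Of 12 myelin markers 7 fell, beside 9.26% of all genes. In non-injured replicate 3 these 7 stood at 149% to 224% of the mean of the other non-injured libraries. The 12 markers summed to 35080 to 84081 CPM in non-injured cord and to 25678 to 34928 CPM in SCI. Their differences without non-injured replicate 3 are not given here. Of 9 fibroblast markers 8 rose, beside 16.6%. The remaining fibroblast marker, Thy1, is also on the pan-neuronal list and fell by 0.57. The part of these shifts in cell makeup in the presynaptic values was not tested.

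**Figure D5:**
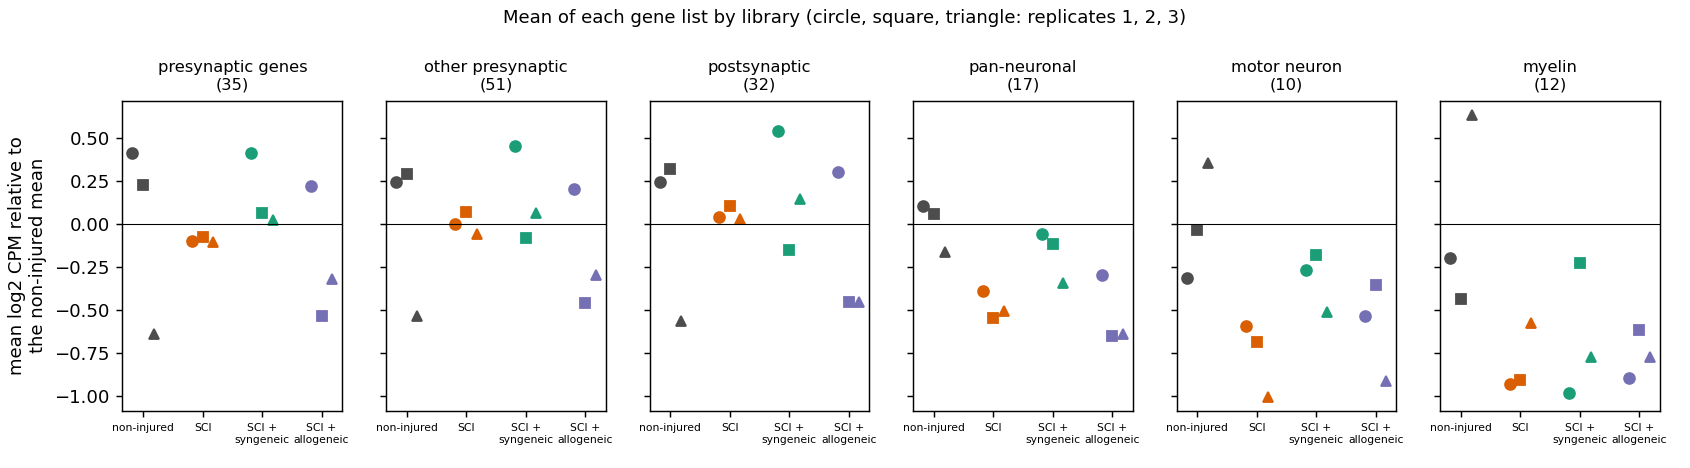
Mean log2 CPM of each gene list in each library relative to the non-injured mean (vertical axis), by group; numbers in parentheses are genes in the list, and circles, squares and triangles are replicates 1, 2 and 3. The non-injured triangle is the lowest point of the presynaptic and postsynaptic panels (-0.64 for the 35 genes) and the highest of the motor neuron (0.35) and myelin (0.63) panels.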

How the data were processed

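RNA sequencing of polyA-selected RNA from a stranded kit, per the labels' protocols, gave the authors' deposited counts of reads per Ensembl gene for 12 libraries, of which 45143 of 46078 genes have a symbol. The genome build GRCm38, the aligner STAR 2.5.1 and the counter featureCounts 1.5.1 are named per the submitters' processing notes, as are StringTie 1.3.3, FastQC 0.11.5, Picard and Trim Galore 0.4.1. The annotation release, strand setting and handling of multiply matching reads are not named there.

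The counts were fitted with edgeR 4.0.16 (R 4.3.3), quasi-likelihood test, with 1 mean per group over all 12 libraries (8 residual degrees of freedom), TMM scaling and filterByExpr (minimum count 10, minimum total 15). Benjamini-Hochberg adjusted p under 0.05 over the genes tested was the threshold, and intervals cover 95%. Log2 CPM used a prior count of 2. The code was tested on simulated counts of SCI against non-injured cord, with changed genes drawn from all genes tested. It recovered 48 of 100 genes changed by 1 on the log2 scale and 17 of 100 changed by 0.6. A gene that was not called can therefore have changed by such amounts. Alternatives were relative log expression scaling, library totals, no filter, DESeq2 1.42.0, limma-voom (limma 3.58.1), only the 2 groups compared, and each library left out. The depth (8705942 to 26151928 counts) left every member but Slc17a7 well above the filter.

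The members and all gene lists were chosen with earlier results of these data known. Values per library are given for members called in a comparison of SCI with non-injured cord or among the injured groups, and for Snap25, Syt1, Slc17a6, Slc32a1 and Gad1. From each other list, up to 3 called genes with the smallest p are given with values, and not every other called gene is named. Replicate numbers follow the order of deposit and only name libraries.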

Additional observations from a re-analysis of the deposited data

How the results depend on the processing

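No paired analysis was possible because the labels carry no replicate numbers. The 35 genes held 5 that fell in SCI against non-injured cord, and 2 to 6 when single libraries were left out. Against SCI, syngeneic cells gave 0, and 0 to 1 with single libraries left out. Allogeneic cells against non-injured cord gave 5, but 3 with library totals as the only scaling, 3 with only the 2 groups compared, and 2 to 12 with single libraries left out. Other scalings moved the median of all genes by less than 0.1 (log2).

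Over all alternatives, 18 of 34 genes (Slc17a7 left out) turned direction at least once in SCI against non-injured cord, 22 in allogeneic cells against SCI and 26 in syngeneic cells against non-injured cord, none of them called. In SCI against non-injured cord, leaving out single libraries gave -0.362 to 0.542 for Syt1, -0.164 to 0.113 for Syt4, -0.216 to 0.415 for Stx1a, -0.276 to 0.0975 for Vamp2, -0.391 to 0.0015 for Syn1, -0.252 to 0.0242 for Sv2a and -0.381 to 0.0619 for Sv2c. It gave -0.373 to 0.302 for Cplx2, -0.391 to 0.236 for Rab3c, -0.0287 to 0.501 for Bsn, -0.295 to 0.0844 for Pclo, -0.465 to 0.0041 for Napb and -0.166 to 0.277 for Syngr1. It gave -0.514 to 0.0119 for Dnm1, -0.345 to 0.256 for Slc6a5, -0.419 to 0.29 for Gad1, -0.0906 to 0.711 for Gad2 and -0.358 to 0.0087 for Nrxn3. Other settings also turned Syt4 (-0.0104 with relative log expression, -0.0104 with DESeq2 and -0.0397 with no filter), Cplx2 (-0.0314 with no filter), Rab3c (0.0169 with library totals and 0.144 with limma-voom) and Gad1 (0.0028 and 0.154 with the same). With limma-voom Pclo was 0.0030 and Slc6a5 0.0519. In allogeneic cells against SCI, leaving out single libraries gave -0.0615 to 0.111 for Snap25, -0.0288 to 0.161 for Vamp1, -0.0142 to 0.183 for Syp and -0.0436 to 0.130 for Cplx1. The cause was not tested. The narrowest 95% interval among the 35 genes in SCI against non-injured cord, that of Syp, spanned -0.93 to -0.25, which limits the differences detectable at this depth and number of libraries.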

Other observations

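Genes for membrane fusion outside neurons were examined beside the presynaptic set. Of 22 such genes, all of which passed the filter, 7 rose, 0 fell and 15 were not called in SCI against non-injured cord, beside 16.6% of all genes called higher and 9.26% lower. The median log2 fold change was 0.27, and 8 of the 22 values were below 0, against 49.2% of all genes. An unadjusted p under 0.05 in the lower direction was reached by 2, against 16.5% of all genes. The 2 were Stx4a at -0.34 and Vamp4 at -0.20 (edgeR adjusted p of 0.11 and 0.10). Stx11, a syntaxin of immune cells, measured 0.35, 0.12 and 0.21 CPM in non-injured cord and 2.45, 2.69 and 2.78 CPM in SCI, a log2 fold change of 3.43 (SE 0.43, edgeR adjusted p = 0.00031). Unc13d, the relative of Unc13a that primes secretory granules of blood cells, measured 0.81, 0.94 and 1.03 CPM in non-injured cord and 3.37, 2.80 and 3.17 CPM in SCI, a log2 fold change of 1.75 (SE 0.24, edgeR adjusted p = 0.00051). Vamp5 rose by 1.03, Rab3d by 1.01, Vamp8, a synaptobrevin of endosomes and granules, by 0.96, Snap23, the broadly expressed relative of Snap25, by 0.55, and Rab27a by 0.44 (edgeR adjusted p of 0.014 to 0.047). The summed microglia and macrophage markers were 222 to 315 CPM in non-injured cord and 2596 to 3625 CPM in SCI, and their part in these values was not tested.

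Unc13d was also the 1 gene of this list that differed between the grafts. It measured 1.44, 1.43 and 2.31 CPM with syngeneic cells and 5.12, 5.64 and 4.52 CPM with allogeneic cells, so the libraries did not overlap, and the difference was -1.57 (SE 0.22, edgeR adjusted p = 0.0078) beside 0.593% of all genes called lower with syngeneic cells. Its paralog Unc13a was not called between the grafts. The summed microglia and macrophage markers were 891 to 3415 CPM with syngeneic and 2528 to 4629 CPM with allogeneic cells, and their part in this difference was not tested.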
